A study of Homo sapiens with 12 samples.

Results

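The transcripts of TRPM8, a cold-sensing cation channel, and of other channels and sensors that let calcium into the cell were followed in LNCaP cells, an androgen-responsive prostate cancer line, with and without Bag-1L. The set was given as 10 gene symbols, and its members were the gene identifiers that GRCh37 annotation tied to them: TRPM8, TRPM4, TRPM7, TRPV6, TRPC1, ORAI1, ORAI2, ORAI3, STIM1 and STIM2. Of these, 9 were found among the 63677 gene identifiers of the count tables, and all 9 were among the 26156 genes with at least 10 counts over all samples. The identifier of ORAI1 in the annotation matched none in the tables, and ORAI1 was not analysed here. TRPM8 was chosen by its measured response to androgen, the fold change of DHT over vehicle, which differed between the cell lines in these same samples, so its values in EtOH and DHT and its responses are described without a test. The other members were chosen as relatives and partners, and were tested in the fit over all genes.

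Bag-1L is the longest protein made from BAG1, a family of cochaperones of heat shock proteins. Its start codon had been deleted with a TALEN, an engineered nuclease, and clones grown from single cells were compared with a TALEN control line (control) as Bag-1L KO (KO). Both lines were grown in full medium with fetal bovine serum (FM), or kept for 72 h in charcoal-stripped serum, which is poor in hormones, and then given ethanol vehicle (EtOH) or 10 nM dihydrotestosterone (DHT), an androgen, for 16 h. This gave 6 groups of 2 replicates. Properties of an isolated clone and loss of Bag-1L cannot be told apart in this design. FM differs from EtOH in serum, in vehicle and in the 72 h of starvation together, and the starvation medium was free of phenol red. The replicates are called biological, but no label says that they were separate cultures or where batches fell, so p-values measure only the spread between these samples.

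TRP channels are cation channels built from subunits that cross the membrane several times, and they open to temperature, lipids, ions or ligands. TRPM8 is opened by cold and menthol, is found in prostate epithelium, and is known there as an androgen-responsive gene. TRPV6 is a highly calcium-selective channel of epithelia, TRPC1 is a channel linked to store depletion, TRPM7 is a channel fused to a kinase that also carries magnesium, and TRPM4 is opened by calcium but carries monovalent ions. STIM1 and STIM2 sense calcium in the endoplasmic reticulum and open the ORAI pores of the plasma membrane when that store empties, a route known as store-operated calcium entry.

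Gene counts totalled between 20826843 and 30354666 per sample, and levels are given as normalized counts, that is, counts divided by a DESeq2 size factor. The floor of 3 counts corresponded to between 2.42 and 3.39 normalized counts, and every member exceeded it in every sample. BAG1, whose counts cover all of its protein forms, lay between 1076 and 1576 normalized counts in KO samples and between 1702 and 2703 in control samples. None of the 9 luminal prostate markers fell below 803.7 in any sample, with KLK3 between 5354 and 23180. Their summed level lay between 73359 and 78049 in control EtOH and between 80851 and 81702 in KO EtOH. With DHT it was 128670 to 136270 for control and 127700 to 132340 for KO. In FM it was higher in KO, at 115020 to 123570 against 89028 to 90169 for control. Among 14 markers of other cells, KRT5, DES, PTPRC, CD3E and CD68 had at most 3 counts in any sample. The summed level of those 14 lay between 1499 and 1561 in the EtOH samples of the control line and 1337 and 1350 in those of KO. With DHT the ranges were 2031 to 2104 for control and 1276 to 1441 for KO, and in FM 826 to 891 and 756 to 829. Of the 14, COL1A1 ranged from 370 to 1013, ACTA2 from 49.9 to 709.7 and ENO2 from 42.8 to 352. VWF ranged from 127 to 240.7 and SYP from 20.4 to 78.7, and the remaining markers reached at most 38.4 (COL3A1). The part of these markers in the results was not tested. Fewer cells of a kind and less RNA per cell cannot be told apart in bulk RNA. Replicates differed most in control EtOH, by a median of 0.238 on the log2 scale, against 0.0765 to 0.172 elsewhere.

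The promoters of TRPM8 and TRPV6 are shown because these were the members with the fewest CG dinucleotides around the start, and because their log2 fold changes in FM against EtOH had opposite signs. Each sequence runs 5′ to 3′ on the gene's strand, from 250 bases before to 50 bases after the RefSeq start (GRCh38.p14). TRPM8 covers chr2:233917123-233917422 on the plus strand, and its capitals mark TATAAA. TRPV6 covers chr7:142885696-142885995 on the minus strand, and TATAAA is not in it.
TRPM8: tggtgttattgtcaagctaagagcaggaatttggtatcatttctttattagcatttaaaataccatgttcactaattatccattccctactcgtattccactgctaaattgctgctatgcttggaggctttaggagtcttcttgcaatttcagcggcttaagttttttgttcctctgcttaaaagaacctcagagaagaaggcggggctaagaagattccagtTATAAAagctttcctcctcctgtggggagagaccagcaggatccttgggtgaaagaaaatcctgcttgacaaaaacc
TRPV6: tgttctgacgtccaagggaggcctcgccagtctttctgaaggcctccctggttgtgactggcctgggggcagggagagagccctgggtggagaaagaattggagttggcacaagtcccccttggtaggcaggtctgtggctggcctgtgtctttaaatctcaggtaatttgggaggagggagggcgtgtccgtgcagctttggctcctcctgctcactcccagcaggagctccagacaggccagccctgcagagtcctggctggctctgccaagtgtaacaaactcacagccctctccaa

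The TRPM8 promoter held 3 CG dinucleotides and that of TRPV6 held 4, whereas the other 7 matched members held between 17 and 48. At most 4 were present in 29.6% of all 35116 promoters of the same length, whose median was 14. TATAAA began 27 bases before the TRPM8 start and was on the gene strand in 7.33% of all promoters, but in no other member. A match of these letters is a description of the window, not a site.

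TRPM8 (ENSG00000144481, chromosome 2, 234826018 to 234928166, plus strand, GRCh37) varied 7.11-fold between its lowest and highest group means. In starved cells with vehicle, its normalized counts were 267 and 265 in control EtOH and 246 and 273 in KO EtOH. The samples given DHT had 534 and 568 in the control line, and 1310.2 and 1178 in KO. Full medium gave 808 and 811 in control, against 1878 and 1813 in KO. The order was thus KO FM, KO DHT, control FM, control DHT, and then the EtOH groups of both lines, which overlapped. No other neighbours in this order overlapped.

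**Figure D1:**
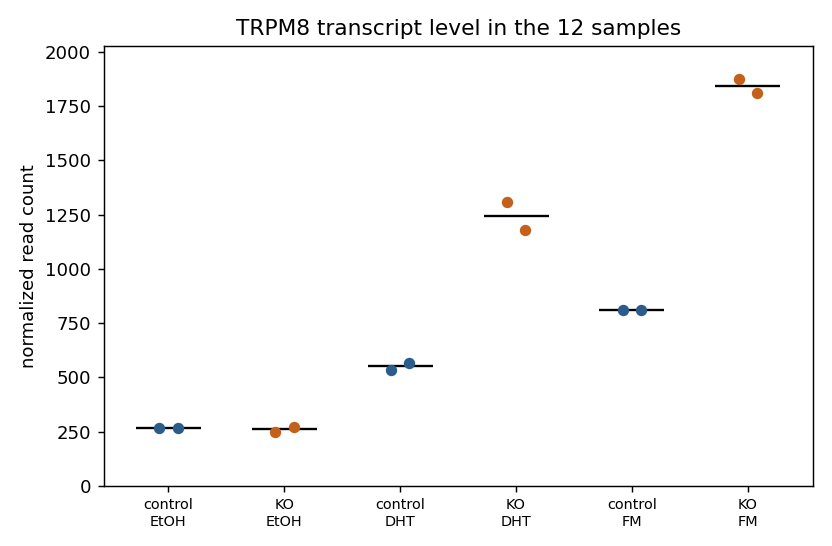
Normalized counts of TRPM8 (vertical axis) in each sample of the 6 groups, control and KO side by side in EtOH, DHT and FM, with points for the samples (control blue, KO orange) and horizontal lines for the group means. The EtOH groups overlap between 246 and 273 normalized counts, whereas the KO samples lie above the control samples with DHT and in FM.

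The group mean of TRPM8 in control was 266.0 ± 2.0 with vehicle and 551 ± 24 with DHT (SD, n = 2), which is 1.05 on the log2 scale (standard error, SE, 0.13). In KO the means were 259.7 ± 18.7 and 1244 ± 93 (SD, n = 2), or 2.26 (SE 0.13). The response was larger in KO by 1.21 on the log2 scale (SE 0.19), the difference for which the gene was picked. KO and control differed by -0.03 in EtOH (95% interval -0.31 to 0.24) and by 1.18 with DHT (SE 0.12). FM against EtOH gave 1.61 (SE 0.13) in control and 2.83 (SE 0.13) in KO, so FM stood above DHT in both lines. The FM response was larger in KO by 1.22 (SE 0.18), and both responses use the same EtOH samples.

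The DHT contrast that chose TRPM8 uses no FM sample, so KO against control in FM was tested. The gene was chosen with earlier results of the series known, so this p is not independent evidence. The mean normalized count was 809.8 ± 2.0 in control FM and 1845 ± 46 in KO FM (SD, n = 2). KO was higher by 1.19 on the log2 scale (SE 0.12, 95% interval 0.96 to 1.42, DESeq2 adjusted p = 2.71e-21), a 2.28-fold difference. It stayed between 1.16 and 1.21 when any FM sample was left out. Of the 15000 genes tested there, 8.01% passed the threshold of an adjusted p of at most 0.05 and a fold change of at least 1.5, and 5.41% did so as higher in KO. Of the other members, TRPC1 alone passed in FM, as higher. TRPM8 is not counted with them, because it was picked for its DHT response in these lines.

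Whether the genes beside TRPM8 also differed between lines was examined within 500 kb on either side. Of 38 annotated genes in that window, 10 passed the count filter, and some of those with a mean of at least 100 normalized counts are given here. In FM none of the genes given passed the threshold, and their log2 fold changes of KO against control were -0.11 for DGKD, a diacylglycerol kinase, -0.04 for USP40, a ubiquitin protease, 0.08 for HJURP, a centromere chaperone, and 0.17 for the pseudogene MSL3P1. HJURP had -0.56 with DHT (DESeq2 adjusted p = 4.98e-05) and -0.51 in EtOH (adjusted p = 0.000503), both under the fold change minimum. With DHT it passed without control DHT replicate 1 (-0.62) or KO DHT replicate 1 (-0.60). HJURP was higher in FM than in EtOH, by 0.94 in control (adjusted p = 6.29e-15) and 1.52 in KO (adjusted p = 2.76e-37), and this FM response passed as larger in KO by 0.59 (SE 0.16, adjusted p = 0.0285). The call of a larger response was lost by edgeR (0.60, adjusted p = 0.131), in a fit of only the samples compared, with the replicate number as a block, and without any 1 of control FM replicates 1 and 2, KO FM replicates 1 and 2, KO EtOH replicates 1 and 2 or control EtOH replicate 1 (0.51 to 0.66).

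The genes whose level followed TRPM8 most closely were ranked by Pearson correlation of log2(normalized count + 1) over the 12 samples, among 11103 genes with a symbol and a mean of at least 100. The 5 highest were SLC16A6 (0.990), a monocarboxylate transporter family member, NSMAF (0.989), a factor that binds the TNF receptor and neutral sphingomyelinase, CCDC136 (0.983), CYP2U1 (0.982), a cytochrome P450, and TMPRSS2 (0.967), an androgen-regulated serine protease. SLC16A6 had group means of 100.2 and 124 in the EtOH samples of control and KO, 234 and 490.2 with DHT, and 369 and 671 in FM. TMPRSS2 had 1239 and 830.2 in EtOH, 3083 and 5400 with DHT, and 3751 and 6659 in FM, in control and KO respectively. In EtOH the TMPRSS2 mean of KO lay below that of control, whereas the TRPM8 samples of both lines overlapped.

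The 3 lowest correlations belonged to TLE1 (-0.976), a Groucho-family corepressor, CRIPT (-0.973) and FYN (-0.958), a Src-family kinase. TLE1 had group means of 1192 and 1089 in EtOH, 731 and 514 with DHT and 534 and 297 in FM, in control and KO. The 12 points of each correlation form 6 groups and share libraries and size factors with TRPM8, so the values are descriptions. Among the members, the correlation with TRPM8 was highest for TRPM4 (0.448) and TRPM7 (0.285) and lowest for TRPC1 (-0.342) and TRPV6 (-0.308).

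**Figure D2:**
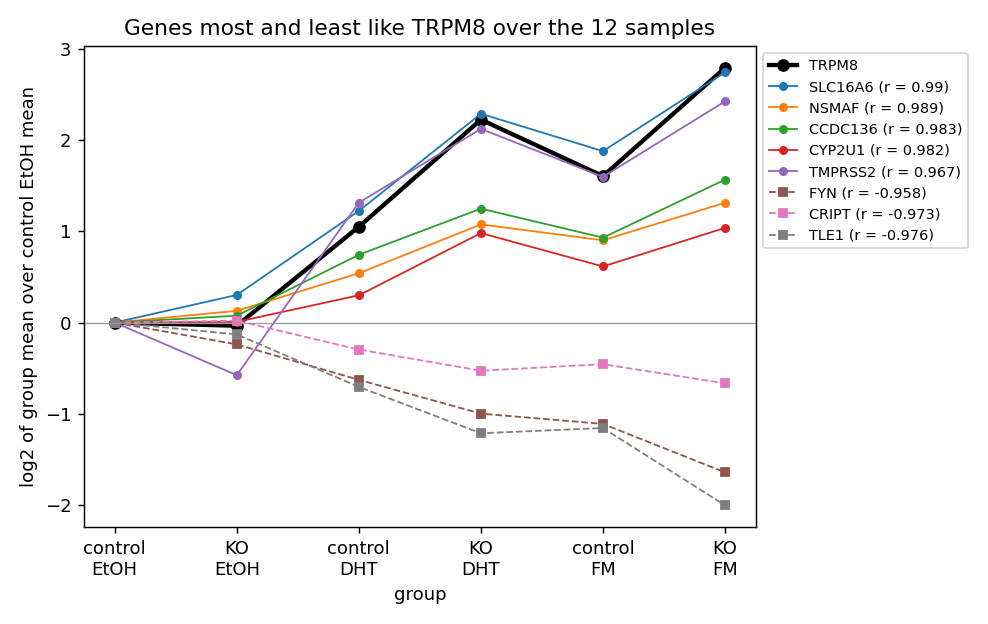
Log2 of each group mean over the control EtOH mean of the same gene (vertical axis) in the 6 groups, for TRPM8 (thick black line), the 5 genes with the highest correlation with it (solid lines) and the 3 with the lowest (dashed lines). TRPM8 and those 5 are highest in KO FM, and TLE1, CRIPT and FYN are lowest there.

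Levels of different members were compared per kilobase of the canonical transcript, as means over the 12 samples. STIM1 was the most abundant at 556 normalized counts per kb, followed by TRPV6 (268), TRPM4 (225), TRPM7 (168), STIM2 (153) and TRPM8 (147). ORAI2 (37.7), TRPC1 (15.2) and ORAI3 (14.1) were the scarcest. Per kilobase of all annotated exons, STIM1 was still first and ORAI2, TRPC1 and ORAI3 still last, but TRPV6 ranked 6 instead of 2, so the middle of the order depends on the transcript length used. In KO FM, TRPM8 reached 327 per kb of the canonical transcript, above the 251 of TRPV6, whereas in control EtOH it stood at 47.1 beside 290 for TRPV6. The highest group mean exceeded the lowest by 7.8-fold for TRPC1 and by 1.18-fold for STIM1, the most and the least variable members by this ratio.

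TRPV6 (ENSG00000165125, chromosome 7, 142568961 to 142583490, minus strand, GRCh37) ran opposite to TRPM8 across media and was higher in KO with DHT. In control its normalized counts were 790 and 895 with vehicle, 632 and 605 with DHT, and 527 and 507 in FM. In KO they were 1018 and 1035 in EtOH, 927 and 952 with DHT, and 708 and 751 in FM. Both KO samples thus lay above both control samples in every medium, and FM was the lowest medium in each line. The share of all genes whose samples separate between lines was not computed. With 2 samples per group, small differences can separate too: TRPM4 did so in FM at 0.05 (DESeq2 adjusted p = 0.872).

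KO against control passed for TRPV6 with DHT, at 0.60 (SE 0.12, DESeq2 adjusted p = 1.56e-05), a 1.52-fold difference that lies next to the minimum of 1.5. It fell below that minimum without control DHT replicate 2 (0.57) or KO DHT replicate 2 (0.58). In FM it was 0.50 (SE 0.12, adjusted p = 0.00111), under the minimum, and in EtOH 0.29 (SE 0.12, adjusted p = 0.114). DHT gave -0.45 in control (SE 0.12, adjusted p = 0.00209, under the minimum) and -0.13 in KO (SE 0.12, adjusted p = 0.609). The difference between these responses was 0.32 (95% interval -0.01 to 0.65, adjusted p = 1.0), so a different response of TRPV6 was not shown. In FM, TRPV6 was lower than in EtOH in control, with a log2 fold change of -0.71 (SE 0.12, adjusted p = 1.07e-07) and had -0.49 in KO (SE 0.12, adjusted p = 0.000221, under the minimum), with a difference of 0.21 (95% interval -0.12 to 0.55).

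**Figure D3:**
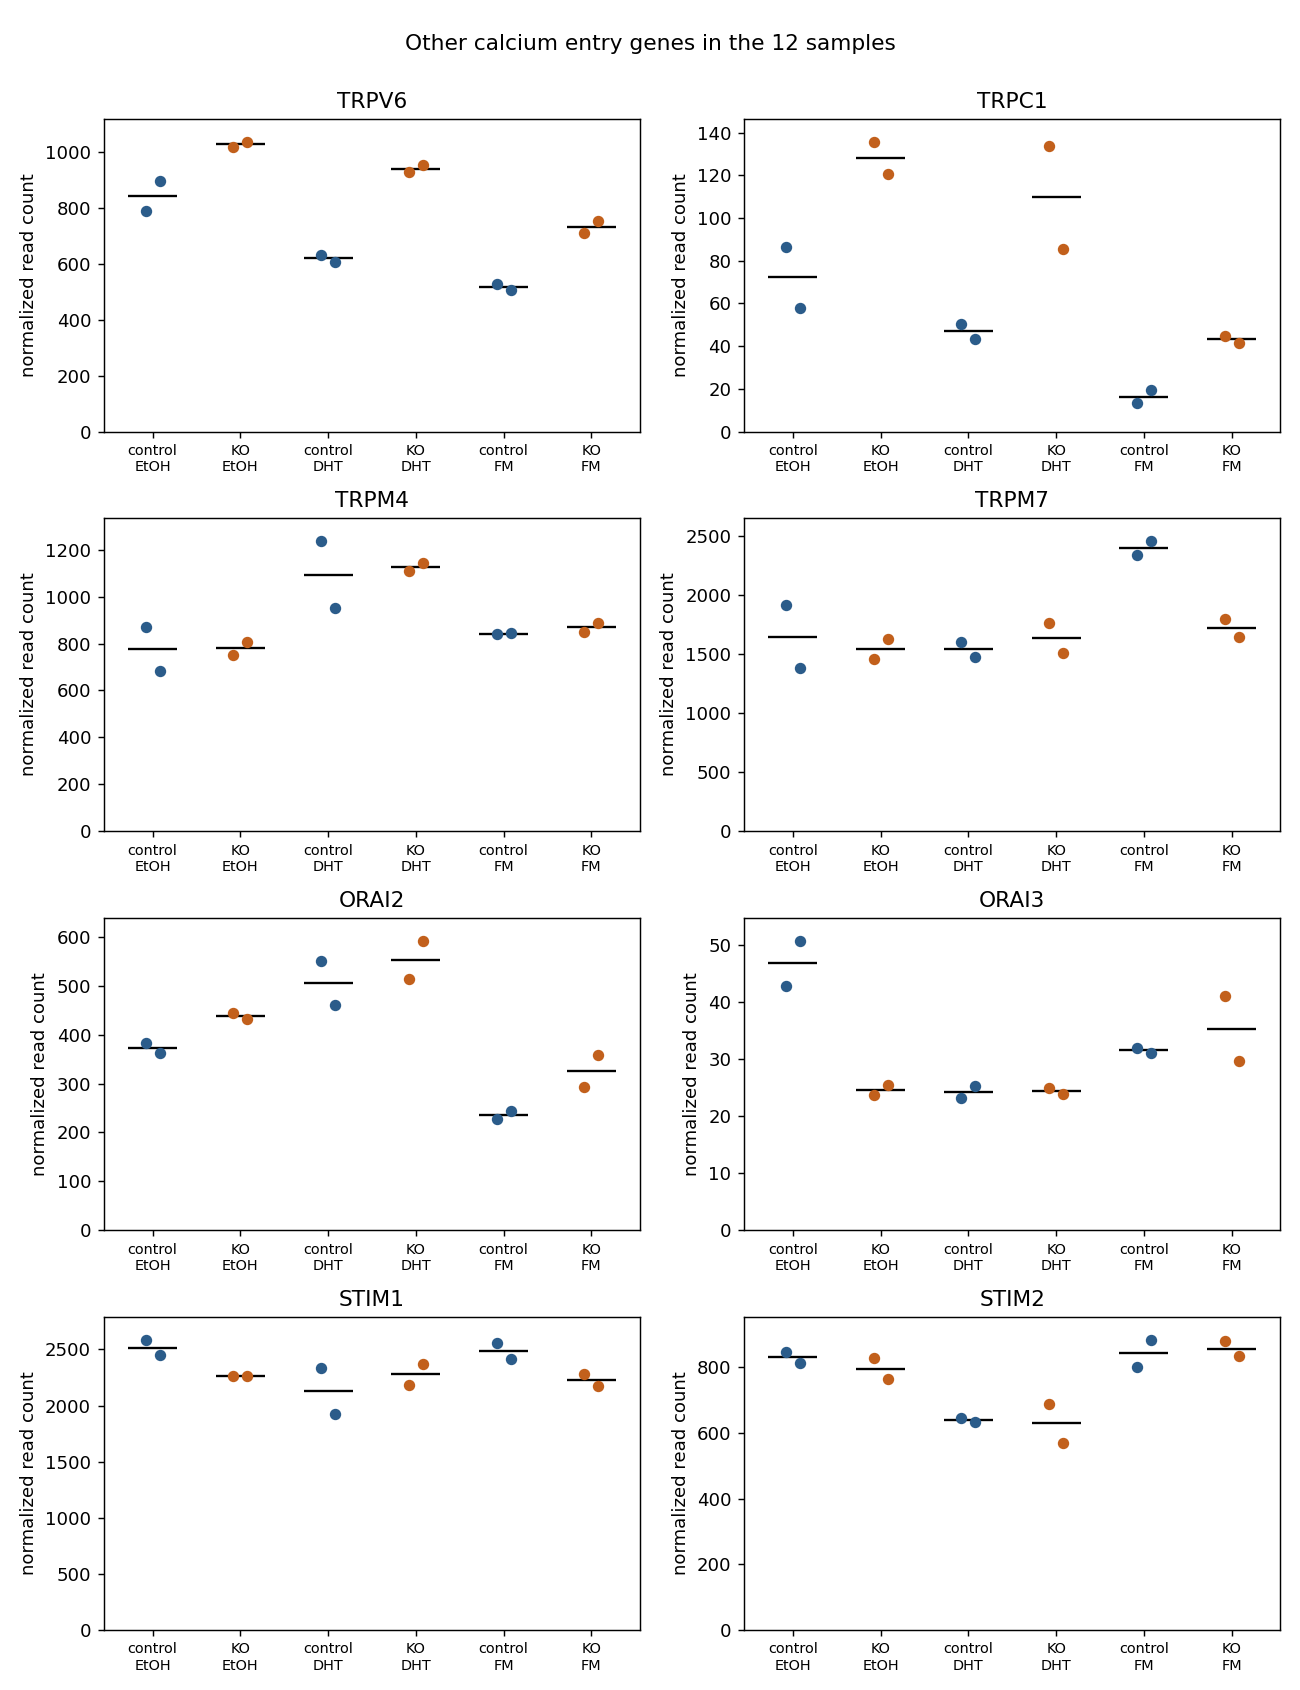
Normalized counts (vertical axes, each from 0) of the other 8 members in every sample of the 6 groups, with points for samples (control blue, KO orange) and horizontal lines for group means. TRPV6 and TRPC1 are higher in KO than in control in each medium and lowest in FM, and STIM1 has the smallest ratio between group means, 1.18.

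TRPC1 (ENSG00000144935, chromosome 3, 142442876 to 142526730, plus strand, GRCh37) was scarce, between 12 and 166 counts per sample. In control its normalized counts were 86.6 and 57.7 with vehicle, 50.5 and 43.4 with DHT, and 13.3 and 19.5 in FM. In KO they were 136 and 120.5 in EtOH, 134 and 85.7 with DHT, and 44.8 and 41.6 in FM. As for TRPV6, the KO samples lay above the control samples in each medium without overlap, and FM was lowest in both lines.

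KO exceeded control for TRPC1 by 1.23 with DHT (SE 0.33, DESeq2 adjusted p = 0.00218) and by 1.39 in FM (SE 0.41, adjusted p = 0.00697), and the 0.82 in EtOH did not pass (SE 0.31, adjusted p = 0.0736). These calls rested on few counts: the FM call was lost without any of its 4 samples (adjusted p between 0.0565 and 0.131), and the DHT call without control DHT replicate 2 (1.13, adjusted p = 0.0823) or KO DHT replicate 1 (0.87, adjusted p = 0.188). The EtOH difference passed by edgeR's quasi-likelihood test (0.82, adjusted p = 0.0428) and without control EtOH replicate 1 (1.15, adjusted p = 0.0186). TRPC1 was lower in FM than in EtOH in both lines, with log2 fold changes of -2.13 in control (SE 0.39, adjusted p = 6.67e-07) and -1.56 in KO (SE 0.33, adjusted p = 1.66e-05). DHT gave -0.62 in control (SE 0.33, adjusted p = 0.202) and -0.21 in KO (SE 0.30, adjusted p = 0.791).

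TRPM4 (ENSG00000130529, chromosome 19, 49660998 to 49715093, plus strand, GRCh37) had similar values for DHT in both lines, neither of which passed. Control samples had 871 and 683 normalized counts with vehicle against 1237 and 952 with DHT, and KO samples had 753 and 807 against 1109 and 1143. The log2 fold changes were 0.49 in control (SE 0.15, DESeq2 adjusted p = 0.00848) and 0.53 in KO (SE 0.15, adjusted p = 0.00568), both under the fold change minimum, with a difference between lines of 0.04 (95% interval -0.38 to 0.46). The control value passed without control EtOH replicate 1 (0.68) or control DHT replicate 2 (0.67). In FM it lay between 840.4 and 889 in both lines, beside the EtOH range of 683 to 871.

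TRPM7 (ENSG00000092439, chromosome 15, 50844670 to 50978994, minus strand, GRCh37) stood apart in control FM. Its normalized counts there were 2341 and 2456, whereas KO FM gave 1799 and 1647 and the 8 starved samples lay between 1380 and 1917. KO against control in FM was -0.48 (SE 0.15, DESeq2 adjusted p = 0.0150) and FM against EtOH in control 0.54 (SE 0.15, adjusted p = 0.00186), both under the fold change minimum. The latter reached 0.80 and passed without control EtOH replicate 1, the higher of those replicates. In KO, FM against EtOH was 0.16 (SE 0.15, adjusted p = 0.482), and the difference between lines was -0.38 (95% interval -0.81 to 0.04, adjusted p = 0.372). Of the annotated TRPM7 exon bases, 4.9% are shared with a long noncoding gene on the opposite strand.

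The store-operated route was represented by both STIM sensors and the ORAI2 and ORAI3 pores. STIM1 (ENSG00000167323, chromosome 11, 3875757 to 4114440, plus strand, GRCh37) had the smallest relative range, between 1924 and 2583 normalized counts in the 12 samples. No comparison of STIM1 passed, and its DHT response in control was -0.24 (SE 0.12, DESeq2 adjusted p = 0.145). STIM2 (ENSG00000109689, chromosome 4, 26859223 to 27027003, plus strand, GRCh37) had 848 and 814 in control with vehicle against 646 and 633 with DHT, and in KO 827 and 766 against 689 and 570. The samples with DHT were thus below those with EtOH in both lines, at log2 fold changes of -0.38 in control (SE 0.13, adjusted p = 0.0254, under the minimum) and -0.34 in KO (SE 0.13, adjusted p = 0.0706). In FM, STIM2 lay between 803 and 883, beside 766 to 848 in EtOH.

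ORAI2 (ENSG00000160991, chromosome 7, 102073553 to 102097272, plus strand, GRCh37) was highest with DHT and lowest in FM in both lines. In control its normalized counts were 383 and 362 in EtOH, 551 and 461 with DHT, and 227 and 244 in FM. In KO they were 444 and 432 in EtOH, 513 and 592 with DHT, and 293 and 357 in FM. FM against EtOH passed in control, at -0.66 (SE 0.17, DESeq2 adjusted p = 0.000482), whereas the -0.43 in KO (SE 0.16, adjusted p = 0.0273) was under the fold change minimum. The difference between lines was 0.23 (95% interval -0.23 to 0.68, adjusted p = 0.659). DHT gave 0.44 in control (SE 0.16, adjusted p = 0.0313, under the minimum) and 0.33 in KO (SE 0.16, adjusted p = 0.170), and KO against control in FM was 0.46 (SE 0.17, adjusted p = 0.0390, under the minimum). Of the annotated ORAI2 exon bases, 5.29% are shared with ALKBH4 on the opposite strand.

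ORAI3 (ENSG00000175938, chromosome 16, 30960389 to 30967782, plus strand, GRCh37) had between 21 and 51 counts per sample, and 52.9% of its annotated exon bases are shared with a long noncoding gene on the same strand. HTSeq leaves out reads that overlap both, so its level may be understated, which was not measured. Control EtOH stood highest, at 42.8 and 50.7 normalized counts, beside 23.7 and 25.4 for KO with vehicle. With DHT the values were 23.2 and 25.2 for control, and 25.0 and 23.9 for KO. The log2 fold changes were -0.95 for DHT in control (SE 0.40, DESeq2 adjusted p = 0.0802) and -0.93 for KO in EtOH (SE 0.40, adjusted p = 0.142). Both passed by edgeR (-0.96, adjusted p = 0.0153, and -0.92, adjusted p = 0.0401), and both rest on the control EtOH samples, the group whose replicates differed most. The 4 FM samples lay between 29.6 and 41.0, with the lines overlapping.

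**Figure D4:**
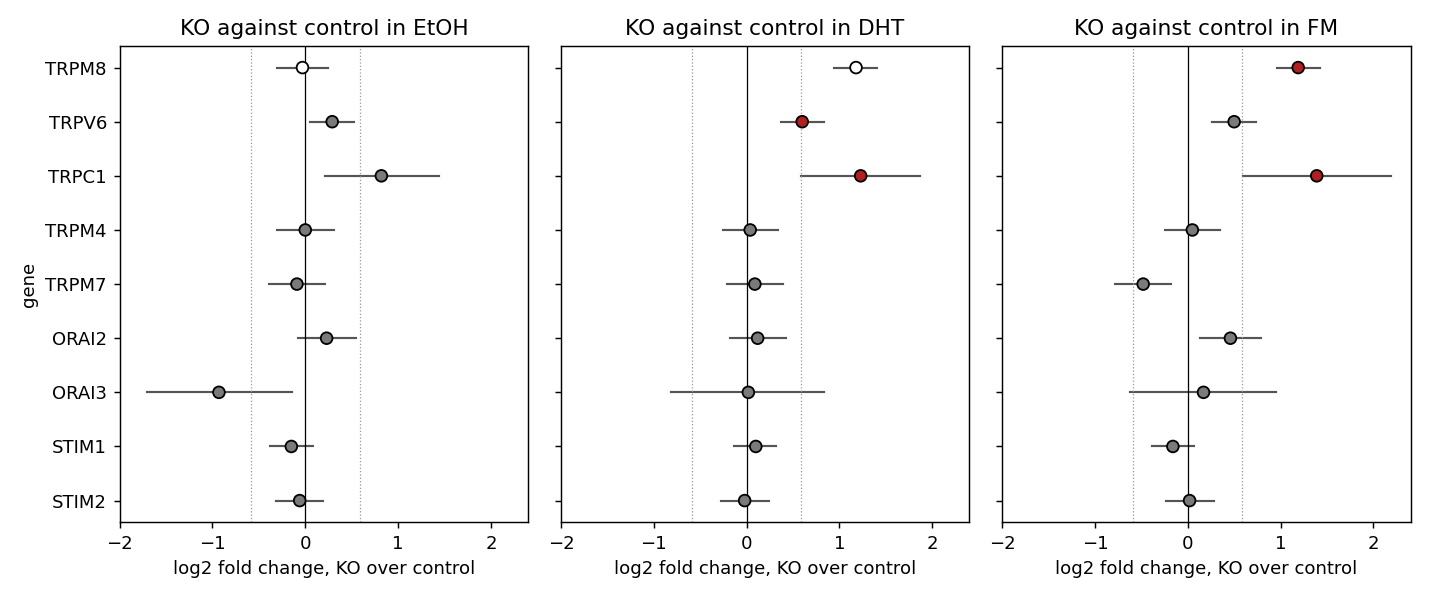
Log2 fold changes of KO against control (horizontal axis) with 95% intervals for the 9 members in EtOH, DHT and FM, where red points passed the threshold, grey points did not, white points are described without a test, and dotted lines mark 1.5-fold. TRPM8 stands at 1.19 in FM, and TRPC1 and TRPV6 lie to the right of 0 in all 3 media.

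Counted over the 8 members other than TRPM8, KO against control passed for 2 with DHT, TRPV6 and TRPC1, both higher, where 7.98% of 16014 genes passed and 4.66% as higher. The median log2 fold change of the 8 was 0.10, beside -0.02 over all genes tested. In EtOH none passed, where 5.11% of 16521 genes did. There 3 members had an unadjusted p under 0.05 in DESeq2, and edgeR called 2. The response to DHT passed for none of the 8 in either line, where 11.4% of 17535 genes passed in control and 7.68% in KO. In control 6 of the 8 had an unadjusted p under 0.05 and edgeR called 1, and in KO 3 had such a p and edgeR called 0. No share of all genes was set beside these unadjusted and edgeR counts, here or for EtOH, so none is read as an excess. The difference between the DHT responses passed for none of the 7 with an adjusted p, with none at an unadjusted p under 0.05 and none by edgeR, where 0.408% of 13478 genes passed.

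The change of medium was then examined in the same way. FM against EtOH passed for 3 of the 8 in control, TRPV6, TRPC1 and ORAI2, and for TRPC1 alone in KO, all lower. The background was 21.3% of 18549 genes in control, 11.5% as lower, and 19.3% in KO, 9.68% as lower. The 8 members had a median log2 fold change of -0.30 for control and 0.04 for KO, beside -0.01 over all genes tested for each. A difference between the 2 FM responses passed for none of the 7 members with an adjusted p, with none at an unadjusted p under 0.05 and none by edgeR, where 1.39% of 12971 genes passed. TRPM8 is outside these counts, and its FM values were higher than its EtOH values in both lines.

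**Figure D5:**
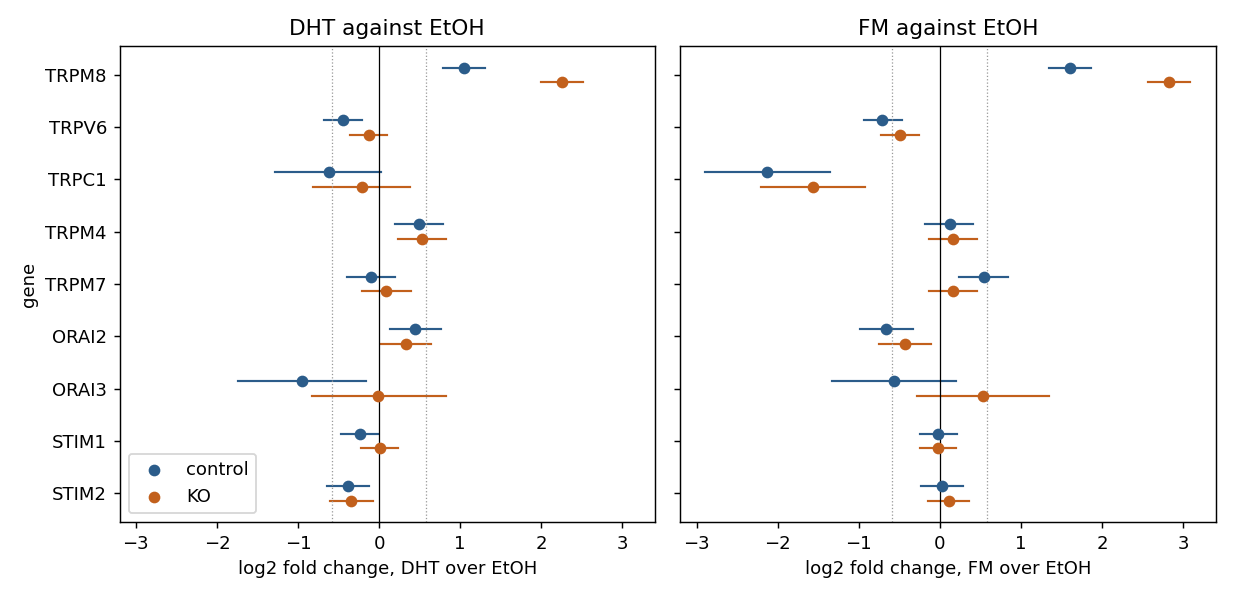
Log2 fold changes of DHT against EtOH and of FM against EtOH in control and KO for the 9 members (horizontal axes, control blue, KO orange), with 95% intervals and dotted lines at 1.5-fold. TRPM8 lies at 1.05 and 2.26 with DHT and at 1.61 and 2.83 in FM, whereas TRPC1 lies at -2.13 and -1.56 in FM.

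The other genes of calcium handling were taken from 8 lists of 119 genes, of which 113 passed the count filter. With DHT, 17 of 80 tested genes passed in control (21.2%, 6 higher and 11 lower) and 8 of 80 in KO (10.0%, 3 higher and 5 lower), beside 11.4% and 7.68% of all genes. For the lists, the median log2 fold change was -0.22 for control and -0.13 for KO, against -0.02 and -0.01 over all genes tested. None of 67 passed the test of a different DHT response in DESeq2, although 6 had an unadjusted p under 0.05, and edgeR called 0. The share of all genes at such an unadjusted p was not computed.

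CAMKK2, a kinase that activates AMPK and a known androgen target, rose with DHT in both lines, from 5104 and 4835 normalized counts to 11467 and 9768 in control and from 3657 and 3821 to 11452 and 11530 in KO. Its log2 fold changes were 1.10 (SE 0.10, DESeq2 adjusted p = 6.56e-25) and 1.62 (SE 0.10, adjusted p = 7.28e-54). ATP2B1, a pump that exports calcium across the plasma membrane, fell with DHT in both lines, at -1.14 in control (SE 0.12, adjusted p = 7.92e-20) and -1.24 in KO (SE 0.12, adjusted p = 3.42e-23). CAMK2B, a calmodulin-dependent kinase, fell in control (-0.89, SE 0.14, adjusted p = 3.28e-09), as did RCAN2, a calcineurin inhibitor (-1.01, SE 0.23, adjusted p = 0.000128). In KO, CAMK2B was also lower with DHT, at 553.5 and 554.8 normalized counts against 755.1 and 743.5 in EtOH, but did not pass. RCAN2 also passed as lower with DHT in KO (-0.61, SE 0.21, DESeq2 adjusted p = 0.0309). That KO call was lost without any 1 of the KO EtOH or KO DHT samples (-0.74 to -0.50). TRPM2, an oxidant-gated channel, rose by 0.77 in control and 0.67 in KO (adjusted p = 0.000246 and 0.00265), but the control call was lost without control EtOH replicate 1 (0.48) and the KO call without KO EtOH replicate 2 (0.65) or KO DHT replicate 2 (0.53).

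KO against control passed for 3 of 74 list genes in EtOH (4.05%, all higher), for 8 of 72 with DHT (11.1%, 7 higher) and for 8 of 72 in FM (11.1%, 3 higher), beside 5.11%, 7.98% and 8.01% of all genes. The list medians were 0.05, 0.11 and -0.01, beside -0.01, -0.02 and -0.01 over all genes tested. The largest of these was CACNA1H, a T-type voltage-gated calcium channel. It had 209 and 181 normalized counts in control EtOH against 595 and 745 in KO EtOH, 189 and 161 against 767 and 869 with DHT, and 82.8 and 80.7 against 525 and 607 in FM. No KO sample overlapped a control sample, and the log2 fold changes were 1.78, 2.22 and 2.79 (SE 0.17, 0.18 and 0.20, DESeq2 adjusted p = 1.8e-21, 1.1e-33 and 2.46e-42). NFATC4, a calcineurin-responsive transcription factor, was higher in KO with DHT (0.74, adjusted p = 1.29e-05) and in FM (1.03, adjusted p = 8.03e-10). ITPR3, a calcium release channel of the endoplasmic reticulum, was lower in KO FM, at 817 and 799 against 1662 and 1544 in control FM (-0.99, SE 0.22, adjusted p = 0.000307).

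FM against EtOH passed for 22 of 88 list genes in each line (25.0%, 5 higher and 17 lower), beside 21.3% and 19.3% of all genes, with medians of -0.17 in control and -0.27 in KO against -0.01 over all genes tested in each. ATP2B1 was again lower, at -1.0 in control and -1.51 in KO (DESeq2 adjusted p = 2.2e-15 and 4.57e-34), as was CRACR2B, a regulator of the ORAI channel, at -1.14 and -0.82 (adjusted p = 2.34e-12 and 5.7e-07). CAMK2B had -1.34 and -1.06 and RCAN2 -1.32 and -1.26, and each of these 4 values passed. CACNA1H fell in control (-1.26, SE 0.21, adjusted p = 1.47e-08), and it was the 1 list gene of 67 that passed the test of a different FM response, at 1.01 (SE 0.26, adjusted p = 0.0150). That call was lost by edgeR (1.03, adjusted p = 0.0594) and without control FM replicate 1 (1.02), control FM replicate 2 (0.99), KO FM replicate 1 (1.11), KO FM replicate 2 (0.90) or KO EtOH replicate 1 (0.86). The lists also held PKD2, SLC35G1, ATP2A2, ITPR1, ITPR2, PLCB1, PLCB4, MICU3, CACNB3, PPP3CC, RCAN1, RCAN3, NFATC1, NFATC3 and CAMKK1 among the genes that passed in some comparison at a mean of at least 100, and each of these lost at least 1 call when a sample was left out. Genes described with values lost calls in this way too. For KO against control in FM these included ATP2B1 (-0.63, and -0.58 without control FM replicate 2) and CAMK2B (0.64, and 0.57 without control FM replicate 1). RCAN2 did so for KO against control with DHT (0.82, and 0.69 without KO DHT replicate 1). TRPM2 did so for FM against EtOH in KO (0.67, and 0.58 without KO FM replicate 2). The 8 lists were chosen with earlier results of these samples known, so their shares beside the background are descriptions.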

How the data were processed

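Stranded poly(A) libraries (TruSeq) of LNCaP control and Bag-1L KO cells were analysed in 6 groups of 2 samples, grouped by the labels. The deposited values were raw read counts per Ensembl gene, which the authors made by mapping with TopHat2 (2.0.11) to GRCh37 and counting with HTSeq (0.5.3p3), versions per the submitters' processing notes, which also name CASAVA 1.7. The strand setting of HTSeq is not given in the sources used here. The 5 tallies of reads without a unique gene, 26.9% to 31.5% of the reads counted and tallied, were left out. HTSeq drops reads that overlap several genes, so overlapping genes are counted low. The annotation held 55665 of the 63677 identifiers.

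Genes with at least 10 counts over the 12 samples (26156) were fitted together in DESeq2 (1.42.0, R 4.3.3) with 1 coefficient per group, median-of-ratios size factors, Wald tests and unshrunken fold changes. A gene passed at a Benjamini-Hochberg adjusted p of at most 0.05, over all genes of a comparison, and a fold change of at least 1.5. Replicate chi-square per degree of freedom was 3.49 to 41.6, above sampling noise, so each sample was counted once. edgeR (4.0.16) and other settings were run as alternatives. Counting error and 2 replicates limit precision, and genes near the floor have wide errors.

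Members, lists and tests were chosen with earlier results of these data known. Besides the members, BAG1 and markers, the genes eligible to be named were list genes past the threshold with a mean of at least 100 normalized counts (at most 3 rises and 3 falls per list and comparison), the 5 highest and 3 lowest correlations with TRPM8, and genes within 500 kb of it that passed the count filter. Of the list genes, those described with values were selected after seeing which calls held. Some items this rule covers are not reported here.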

Additional observations from a re-analysis of the deposited data

How the results depend on the processing

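The call of TRPM8 as higher in KO FM held under each alternative run, with log2 fold changes of 1.16 to 1.21 when an FM sample was left out and 1.19 with the replicate number as a block (DESeq2 adjusted p = 2.03e-18). Replicate numbers were not taken to pair the samples, since the labels tie them to nothing shared and the correlations of same-numbered deviations did not exceed 0.1 in every pair of groups. They ran from -0.415 to 0.692 over 15 pairs, and the 6 over 0.1 were all those among control EtOH, control DHT, KO DHT and KO FM. The block left the counts of members called as they were, and moved the difference in FM response from 1 to 2 list genes and from 180 to 281 genes of all.

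Without a fold change minimum, the members called were 4 and 1 for DHT in control and KO, 5 for KO in FM and 3 for FM in KO. The counts of members for KO in FM, here and with a sample left out, include TRPM8, which the other counts leave out. The list genes called were then 26 and 15 for DHT, 10, 14 and 16 for KO in EtOH, DHT and FM, and 36 for FM in each line, and the genes of all 3491, 2384, 1620, 2620, 2776, 6478 and 5887 in that order. edgeR called 1 member for DHT in control and 2 for KO in EtOH, 24 genes of all for the difference in DHT response, and 0 list genes and 65 of all for that in FM response. A fit of only the samples compared gave 8 list genes for DHT in control, 1 for KO in EtOH, and 531 genes of all for KO in EtOH and 19 for the difference in DHT response.

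With 1 sample left out, whose group's lone sample is assumed to vary like the others, the members called ranged from 0 to 1 for DHT in control, 0 to 1 for KO in EtOH, 0 to 2 for KO in DHT (0 without control DHT replicate 2), 1 to 1 for KO in FM, and 0 to 1 for the difference in FM response. The list genes called ranged from 10 to 18 for DHT in control, 3 to 5 for DHT in KO, 1 to 6, 4 to 9 and 4 to 7 for KO in EtOH, DHT and FM, 0 to 1 for the difference in DHT response and 0 to 11 for that in FM response. The genes of all ranged from 1737 to 2218 for DHT in control, 963 to 1066 for DHT in KO, 480 to 1439, 720 to 1556 and 520 to 901 for KO in EtOH, DHT and FM, 2993 to 4712 for FM in control, 16 to 155 for the difference in DHT response and 49 to 2124 for that in FM response. The DHT response of TRPC1 in KO ranged from -0.576 to 0.067 (without KO DHT replicate 2). KO against control in FM for HJURP ranged from -0.004 (without KO FM replicate 1) to 0.146, and neither was called. The cause of these shifts was not tested. Other size factors and count filters moved no member across the threshold. ORAI3 and TRPC1 are limited by their low counts.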
